A study of Mus musculus with 12 samples.

Results

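Lysosomal enzymes and membrane proteins were described in the hippocampus of mice without the transcription factors CREB and CREM, with and without the glutamate receptor agonist kainate. The genes were a list of 35 that encode soluble hydrolases of the lysosome, their activators and inhibitors, and proteins of the lysosomal membrane. Of these, 34 were measured, among 8251 genes represented on the array, and Manba was not analysed here. The list was drawn from gene function and not from a cut on measured values. It was, however, chosen with earlier results of these data known. Shares of members or markers set beside those of all probe sets are therefore descriptions and not independent tests.

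The data set holds 12 arrays of the Affymetrix type MG-U74A in 4 groups of 3: control animals given saline, control animals given kainate, mutant animals given saline and mutant animals given kainate. All were littermates of both sexes aged 5 to 6 weeks and caged singly, and hippocampal total RNA was taken 1 hour after an intraperitoneal injection, which for kainate was 20 mg/kg. RNA of 3 animals was pooled for an array, so that a group rests on 9 animals and the replicate is the pool. The labels name the mutants by the loss of CREB and CREM and do not give the alleles, the cells in which the genes were lost, or the strain. Values are GCRMA log2 expression, a scale on which a difference of 1 is a 2-fold change. A level on this scale belongs to its own probe set, and levels of different genes are not compared.

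Lysosomes are acidic organelles in which proteins, glycans and lipids delivered by endocytosis, phagocytosis and autophagy are broken down. Cathepsins cut proteins, glycosidases remove sugars from glycoproteins and glycolipids, and lipases, a ceramidase and a sphingomyelinase act on lipids. Glycoproteins line the limiting membrane, and a proton pump acidifies the lumen. In the brain every cell type has lysosomes, and microglia, the resident phagocytes, are rich in several cathepsins and in the membrane protein Cd68. Loss of individual members causes lysosomal storage diseases of the nervous system.

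Across the series, array medians lay between 4.23 and 4.47. The interquartile range was 3.74 on replicate 3 of the control kainate group and 4.40 to 4.61 on the other 11 arrays. The 4 arrays numbered 1 deviated from their group means together (correlations of 0.37 to 0.85 over probe sets) and opposite to the arrays numbered 2 (-0.70 to -0.34), and the labels name no batch. Deviations of the 3 arrays of a group sum to 0, so the opposite sign is not a separate observation. Probe sets for Creb1 differed between genotypes by -0.09 to -0.12 log2 (limma, adjusted p = 0.63 for each of 3), and those for Crem by -0.25 (adjusted p = 0.286) and -0.29 (adjusted p = 0.141). It is not known whether these probe sets cover deleted sequence, so they do not check the labels.

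Several lysosomal genes were higher in mutants than in controls. In a fit with 1 mean per group, averaged over saline and kainate, 5 of 34 members were called at an adjusted p under 0.05 and all 5 were higher in mutants, which is 14.7% against 0.612% of all 12422 probe sets in either direction and 0.419% in the higher direction. These were the cathepsins Ctss, Ctsd and Ctsc, the alpha-mannosidase Man2b1 and the beta-hexosaminidase subunit Hexa. The differences ran from 0.36 log2 for Hexa to 0.99 for Man2b1. Under saline 1 member was called (Ctss), and under kainate 4 were called (Ctss, Ctsd, Man2b1 and Hexa). These are bulk tissue samples, in which more cells of a type and more RNA per cell cannot be told apart.

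Ctss encodes cathepsin S, a cysteine protease prominent in phagocytes that processes the invariant chain of class II molecules. Its log2 level was 9.84, 10.05 and 9.71 on the control saline arrays and 9.98, 10.37 and 10.35 on the control kainate arrays. On the mutant arrays it was 10.81, 10.85 and 10.71 after saline and 10.94, 11.11 and 11.35 after kainate. Every mutant array lay above every control array. The averaged difference was 0.91 log2 (SE 0.10), a 1.88-fold higher level (limma, adjusted p = 0.00208). It was 0.92 (SE 0.14, adjusted p = 0.0374) under saline and 0.90 (SE 0.14, adjusted p = 0.0277) under kainate.

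Ctsd encodes cathepsin D, the main aspartic protease of lysosomes. The control saline arrays read 9.33, 9.36 and 9.38, and the control kainate arrays 9.24, 8.89 and 9.23. The mutant saline arrays read 9.96, 9.99 and 10.02, and the mutant kainate arrays 10.02, 9.61 and 9.95. The genotypes did not overlap, and replicate 2 was the lowest array after kainate in both. The averaged difference was 0.68 log2 (SE 0.09, 1.61-fold, adjusted p = 0.00472), with 0.63 (SE 0.12, adjusted p = 0.137) under saline and 0.74 (SE 0.12, adjusted p = 0.0382) under kainate.

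Man2b1 encodes lysosomal alpha-mannosidase, which removes mannose from N-linked glycans. It measured 6.80, 6.52 and 6.05 on control saline arrays and 6.47, 6.08 and 5.98 on control kainate arrays. It measured 7.43, 7.28 and 7.23 on mutant saline arrays and 7.39, 7.20 and 7.28 on mutant kainate arrays. All mutant arrays lay above the more scattered controls (SD 0.10 in both mutant groups, against 0.38 and 0.26 in the controls, n = 3 each). Man2b1 had the largest difference of the 5 called members, 0.99 log2 (SE 0.13, 1.98-fold, adjusted p = 0.00525). Under kainate it was 1.11 (SE 0.18, adjusted p = 0.0372) and under saline 0.86 (SE 0.18, adjusted p = 0.209). The saline difference passed the threshold with replicate 1 against the other numbers as a term in the fit (adjusted p = 0.0243) and with the replicate number as a block (adjusted p = 0.0306).

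Hexa encodes the alpha subunit of beta-hexosaminidase, which degrades the ganglioside GM2 and whose loss causes Tay-Sachs disease. Control arrays read 8.72, 8.86 and 8.70 after saline and 8.60, 8.53 and 8.31 after kainate. Mutant arrays read 8.95, 9.00 and 8.88 after saline and 9.04, 9.03 and 9.01 after kainate. After saline the genotypes were separated by a small gap, between 8.86 and 8.88, and after kainate by a wider one, between 8.60 and 9.01. The averaged difference was 0.36 log2 (SE 0.06, 1.29-fold, adjusted p = 0.0309), with 0.18 (SE 0.09) under saline and 0.54 (SE 0.09, adjusted p = 0.0382) under kainate. The interaction that tests the difference between treatments was 0.36 log2 (SE 0.13), with an adjusted p of 0.939 from limma.

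Ctsc encodes cathepsin C, or dipeptidyl peptidase I, which activates granule serine proteases of immune cells. It measured 4.91, 4.85 and 4.89 on control saline arrays and 4.87, 5.20 and 5.11 on control kainate arrays. In mutants it measured 5.30, 5.46 and 5.50 after saline and 5.40, 5.87 and 6.14 after kainate. The mutant kainate arrays spread widely (SD 0.37, n = 3), and the lowest of the mutant arrays, 5.30, was above the highest control array, 5.20. The averaged difference was 0.64 log2 (SE 0.11, 1.56-fold, adjusted p = 0.0352).

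**Figure D1:**
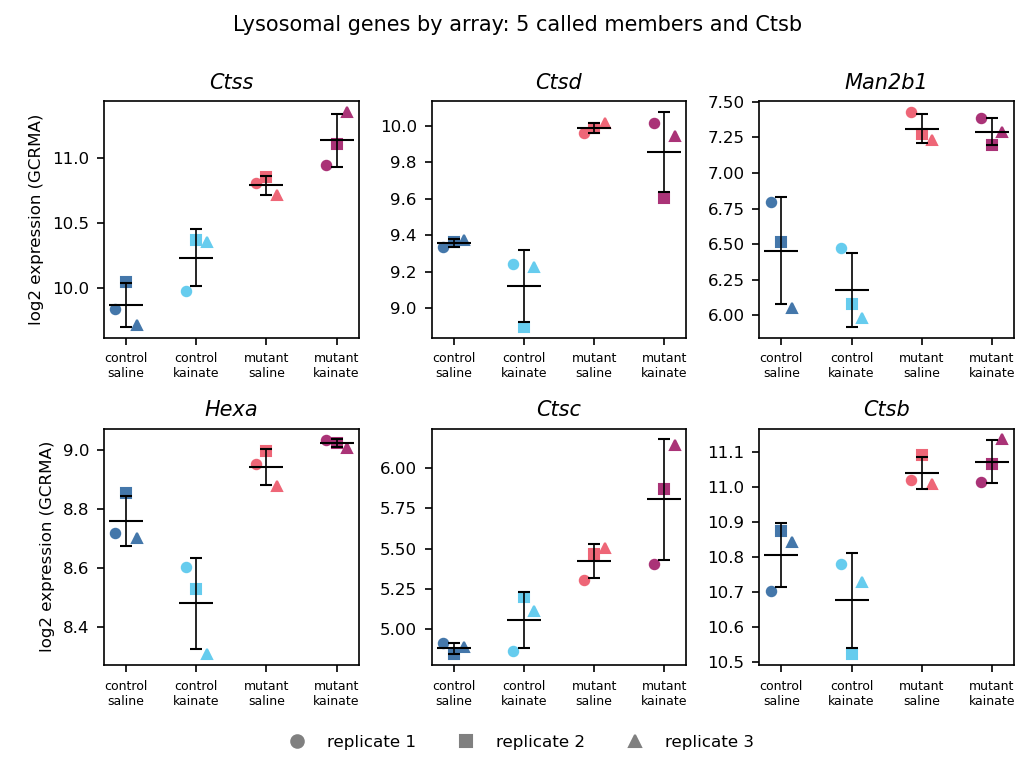
Log2 expression (GCRMA, vertical axis of each panel) of Ctss, Ctsd, Man2b1, Hexa, Ctsc and Ctsb on each of 12 arrays, with 1 point per array, the marker giving the replicate number, the horizontal bar the group mean and the whiskers 1 SD (n = 3). In all 6 panels every mutant array lies above every control array; 5 of these genes passed the threshold in the averaged genotype comparison and Ctsb had an adjusted p of 0.0581 (limma).

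The 5 calls depended on single arrays to different degrees. Ctss, Ctsd and Man2b1 stayed called when any 1 of the 12 arrays was left out. Hexa was still called in 2 and Ctsc in 1 of these 12 fits, with an adjusted p of up to 0.114 for each. The count of called members was 3 in each of 8 such fits: those without any one of the control saline or mutant saline arrays, without control kainate replicate 2 and without mutant kainate replicate 3. It was 8 without control kainate replicate 1 (0.829% of all probe sets were called there) and 6 without control kainate replicate 3, the array with the narrow range (0.789%). With only the arrays numbered 2 and 3, 6 members were called, all higher in mutants (17.6%, against 0.378% of all probe sets): Ctsc, Ctss, Ctsz, Man2b1, Cd68 and Grn. Ctsd then kept its difference of 0.68 log2 with an adjusted p of 0.084.

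Probe sets of the same gene did not always move together. Man2b1, Hexa and Ctsc have further probe sets, all dimmer, whose averaged differences were -0.06 log2 for Man2b1, -0.10 for Hexa and -0.09 and 0.16 for Ctsc, none of them called. The dimmer probe set of Cd68 read -0.10 log2 beside 1.35 for the brighter one, and that of Grn -0.05 beside 0.75. Dimmer probe sets of the uncalled Arsa (-0.11), Glb1 (-0.05), Smpd1 (-0.09) and Atp6ap1 (0.05) also had the opposite sign to the brightest. When all probe sets of a gene were averaged, 3 members (Ctss, Ctsd and Man2b1) were called, against 0.667% of all genes. The difference then was 0.63 log2 for Cd68, 0.46 for Man2b1 and 0.35 for Grn, and Ctsz, with 1 probe set, had the largest at 1.15. For Ctsb, the next brightest probe sets read 0.28 and 0.20 log2 beside 0.31 for the brightest, and its dimmest read -0.06.

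The sequences upstream of the called genes are shown because lysosomal genes as a class can carry a motif, TCACGTGA, that is bound by the transcription factor TFEB and its relatives, and because CREB and CREM bind the cAMP response element, TGACGTCA, and its shorter core TGACG. Promoter windows from RefSeq (GRCm38.p6, 250 bases before to 50 after the gene's start) were found for 31 of the 34 members. Each motif was searched on both strands. CACGTG, the E-box, lies inside TCACGTGA, and TGACG lies inside TGACGTCA. The 250 bases before the start of each called gene, and of Lamp1 as an uncalled member with several E-boxes, are printed 5′ to 3′ on the gene's strand, with matches to these motifs in capitals.
Ctsd, chr7:142387828-142388077, minus strand: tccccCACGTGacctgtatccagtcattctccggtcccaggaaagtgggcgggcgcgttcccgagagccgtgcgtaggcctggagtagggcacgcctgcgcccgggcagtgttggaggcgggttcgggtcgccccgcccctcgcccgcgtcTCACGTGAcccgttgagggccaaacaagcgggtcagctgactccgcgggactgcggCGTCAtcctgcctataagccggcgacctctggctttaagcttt
Ctss, chr3:95526536-95526785, plus strand: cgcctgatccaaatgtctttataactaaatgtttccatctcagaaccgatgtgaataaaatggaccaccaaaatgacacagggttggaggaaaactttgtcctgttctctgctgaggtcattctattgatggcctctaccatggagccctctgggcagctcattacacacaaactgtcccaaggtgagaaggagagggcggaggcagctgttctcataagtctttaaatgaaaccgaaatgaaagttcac
Man2b1, chr8:85083019-85083268, plus strand: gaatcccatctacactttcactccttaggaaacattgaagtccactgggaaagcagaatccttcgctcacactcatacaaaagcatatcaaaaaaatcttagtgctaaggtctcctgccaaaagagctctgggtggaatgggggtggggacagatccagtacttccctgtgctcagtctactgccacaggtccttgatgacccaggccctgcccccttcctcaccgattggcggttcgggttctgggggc
Hexa, chr9:59539290-59539539, plus strand: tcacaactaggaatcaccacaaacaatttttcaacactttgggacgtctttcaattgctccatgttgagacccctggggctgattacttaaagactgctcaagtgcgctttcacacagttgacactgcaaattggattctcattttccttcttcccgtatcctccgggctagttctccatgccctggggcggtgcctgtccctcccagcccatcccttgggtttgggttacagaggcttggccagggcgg
Ctsc, chr7:88277835-88278084, plus strand: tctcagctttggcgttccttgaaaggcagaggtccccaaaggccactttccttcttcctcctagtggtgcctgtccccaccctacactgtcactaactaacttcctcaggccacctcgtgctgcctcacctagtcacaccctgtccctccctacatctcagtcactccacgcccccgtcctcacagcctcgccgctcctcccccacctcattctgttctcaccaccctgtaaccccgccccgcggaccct
Lamp1, chr8:13158911-13159160, plus strand: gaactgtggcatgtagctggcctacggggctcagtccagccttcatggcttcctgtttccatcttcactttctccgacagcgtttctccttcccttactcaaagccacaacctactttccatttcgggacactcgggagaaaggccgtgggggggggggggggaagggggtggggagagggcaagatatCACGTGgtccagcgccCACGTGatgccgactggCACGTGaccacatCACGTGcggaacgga

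Of the 5 called members, Ctsd was the 1 with any of these motifs in its window. Its TCACGTGA begins 99 bases before the start, a further CACGTG begins 245 bases before it, and CGTCA, which is TGACG on the other strand, begins 43 bases before it. Ctss, Man2b1, Hexa and Ctsc had no match, which says only that these letters are not in these windows. Lamp1, which encodes an abundant glycoprotein of the lysosomal membrane and was not called (0.14 log2, SE 0.07, adjusted p = 0.63), has 4 copies of CACGTG within 61 bases of its start. Among the 31 members with a window, 3 (9.68%) held TCACGTGA (Ctsa, Ctsd and Gla), against 1.12% of all genes in the promoter table. CACGTG was present in 9 (29%), against 8.09% of all genes. TGACG was present in 11 (35.5%), against 23%, and the full TGACGTCA in 1, Gusb (3.23%), against 2.03%. A match is a description of the letters, and binding was not measured.

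Beyond the 5 called members, 14 more had an unadjusted p under 0.05 in the averaged comparison. All 19 were higher in mutants by value, which is 55.9% of the members, against 5.98% of all probe sets in either direction and 4.24% in the higher direction. The averaged difference was above 0 for 27 of 34 members (79.4%) with a median of 0.27 log2, while 33.8% of all probe sets were above 0 with a median of -0.06. Among probe sets above the median level, 27 of 31 members were above 0 (87.1%), against 59.8% of all.

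Among the 7 cysteine proteases of the papain family, 6 had a difference above 0, 2 of them called (Ctss and Ctsc), and the median difference was 0.46 log2. Ctsz, cathepsin Z, a carboxypeptidase, had the largest difference of the family, 1.15 log2 (SE 0.23, 2.21-fold), and an adjusted p of 0.0727. It read 8.37, 7.73 and 7.84 on control saline arrays, 8.74, 8.19 and 7.44 on control kainate arrays, 9.28, 8.77 and 8.58 on mutant saline arrays and 9.98, 9.21 and 9.36 on mutant kainate arrays. Within each treatment the genotypes did not overlap for Ctsz, but replicate 1 was the highest array in every group and the groups were wide (SD 0.34 to 0.65). Ctsb, an abundant endopeptidase and carboxypeptidase, differed by 0.31 log2 (SE 0.06, adjusted p = 0.0581). Ctsh, an aminopeptidase, differed by 0.46 (SE 0.10, adjusted p = 0.0883), and Ctsl, an endopeptidase, by 0.30 (SE 0.07, adjusted p = 0.144). Ctsk, the collagen-degrading cathepsin of osteoclasts, lay below the median level of the array and differed by -0.03 (SE 0.07).

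All 4 of the other proteases had a difference above 0. Besides Ctsd, Ctsa, the protective protein that stabilises neuraminidase and beta-galactosidase, differed by 0.37 log2 (SE 0.12, adjusted p = 0.401). Lgmn, the asparaginyl endopeptidase legumain that matures other cathepsins, differed by 0.31 (SE 0.09, adjusted p = 0.27). Tpp1, the tripeptidyl peptidase lost in late infantile neuronal ceroid lipofuscinosis, differed by 0.26 (SE 0.07, adjusted p = 0.27).

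Of the 8 glycosidases, Man2b1 and Hexa were called, Gusb had a large difference without passing the threshold, and the other 5 ranged from -0.21 to 0.09 log2. Gusb, beta-glucuronidase, read 4.28, 4.38 and 4.48 on control saline arrays and 4.56, 4.65 and 4.06 on control kainate arrays. It read 4.84, 4.90 and 4.66 on mutant saline arrays and 5.89, 5.04 and 5.73 on mutant kainate arrays. All 6 mutant arrays were above all 6 control arrays, and the averaged difference was 0.77 log2 (SE 0.15, adjusted p = 0.0578). Neu1, the sialidase, had the lowest value, -0.21 (SE 0.11), followed by Gaa (acid alpha-glucosidase) and Gla (alpha-galactosidase A), each at -0.11. Idua, the iduronidase of glycosaminoglycan breakdown, was at 0.03 (SE 0.10) and Glb1, beta-galactosidase, at 0.09 (SE 0.12).

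The 6 hydrolases of lipids, thioesters and sulfates with their activator protein had no called member and a median of 0.08 log2. Asah1, acid ceramidase, had the highest value, 0.16 (SE 0.10), and Ppt1, palmitoyl-protein thioesterase, the lowest, -0.10 (SE 0.10). Psap, the precursor of the saposins that present sphingolipids to these enzymes, was at -0.02 (SE 0.08). Smpd1, acid sphingomyelinase, was at 0.10 (SE 0.14). For Lipa, acid lipase, at 0.14 (SE 0.27), and Arsa, arylsulfatase A, at 0.05 (SE 0.23), the 95% intervals reached from -0.46 to 0.73 and from -0.46 to 0.57, so differences as large as that of Hexa in either direction were within them.

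Among the 7 membrane proteins, none was called and 6 were above 0, with a median of 0.28 log2. Cd68, a glycoprotein of macrophage and microglial lysosomes, had the largest difference of the 34 members by their brightest probe sets, 1.35 log2 (SE 0.32, 2.55-fold), and an adjusted p of 0.13. Over the alternatives run this difference lay between 0.63, with its 2 probe sets averaged, and 1.53. It read 4.51, 4.18 and 3.94 on control saline arrays and 4.88, 3.94 and 4.04 on control kainate arrays, against 6.35, 5.03 and 4.58 on mutant saline arrays and 6.58, 5.45 and 5.59 on mutant kainate arrays. Replicate 1 was the highest array of all 4 groups, and 1 control array (4.88) lay above 1 mutant array (4.58). With replicate 1 against the other numbers as a term in the fit, which in this balanced design leaves every group difference as it is and changes only its error, Cd68 had an adjusted p of 0.00116. Ctsz in that fit had an adjusted p of 0.000991, Grn of 0.000449, Gusb of 0.0357 and Cd63 of 0.0279, and 10 members were called in all (29.4%, against 1.13% of all probe sets).

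Cd63, a tetraspanin of late endosomes and lysosomes, differed by 0.41 log2 (SE 0.09, adjusted p = 0.0971) with all 6 mutant arrays above all 6 controls. Lamp2, needed for the fusion of autophagosomes with lysosomes, differed by 0.52 (SE 0.22, adjusted p = 0.63). Its level was 7.27 on replicate 3 of the control kainate group and 8.47 to 9.16 on the other 11 arrays. Without this array the Lamp2 difference was 0.29 (adjusted p = 0.241). Scarb2, the receptor that sorts beta-glucocerebrosidase to the lysosome, differed by 0.28 (SE 0.09, adjusted p = 0.317). Lamp1 and the small transmembrane protein Laptm4a were at 0.14 and 0.11, and Atp6ap1, an accessory subunit of the proton pump, at -0.10 (SE 0.06).

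Grn encodes progranulin, a secreted glycoprotein that is cut into granulins in the lysosome. It read 7.83, 7.49 and 7.68 on control saline arrays and 7.99, 7.46 and 7.53 on control kainate arrays, against 8.75, 8.13 and 8.14 on mutant saline arrays and 8.81, 8.36 and 8.27 on mutant kainate arrays. Every mutant array was above every control array, and the averaged difference was 0.75 log2 (SE 0.15, 1.68-fold, adjusted p = 0.0599). Cst3 encodes cystatin C, a secreted inhibitor of cysteine cathepsins, and differed by 0.15 (SE 0.05, adjusted p = 0.581).

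**Figure D2:**
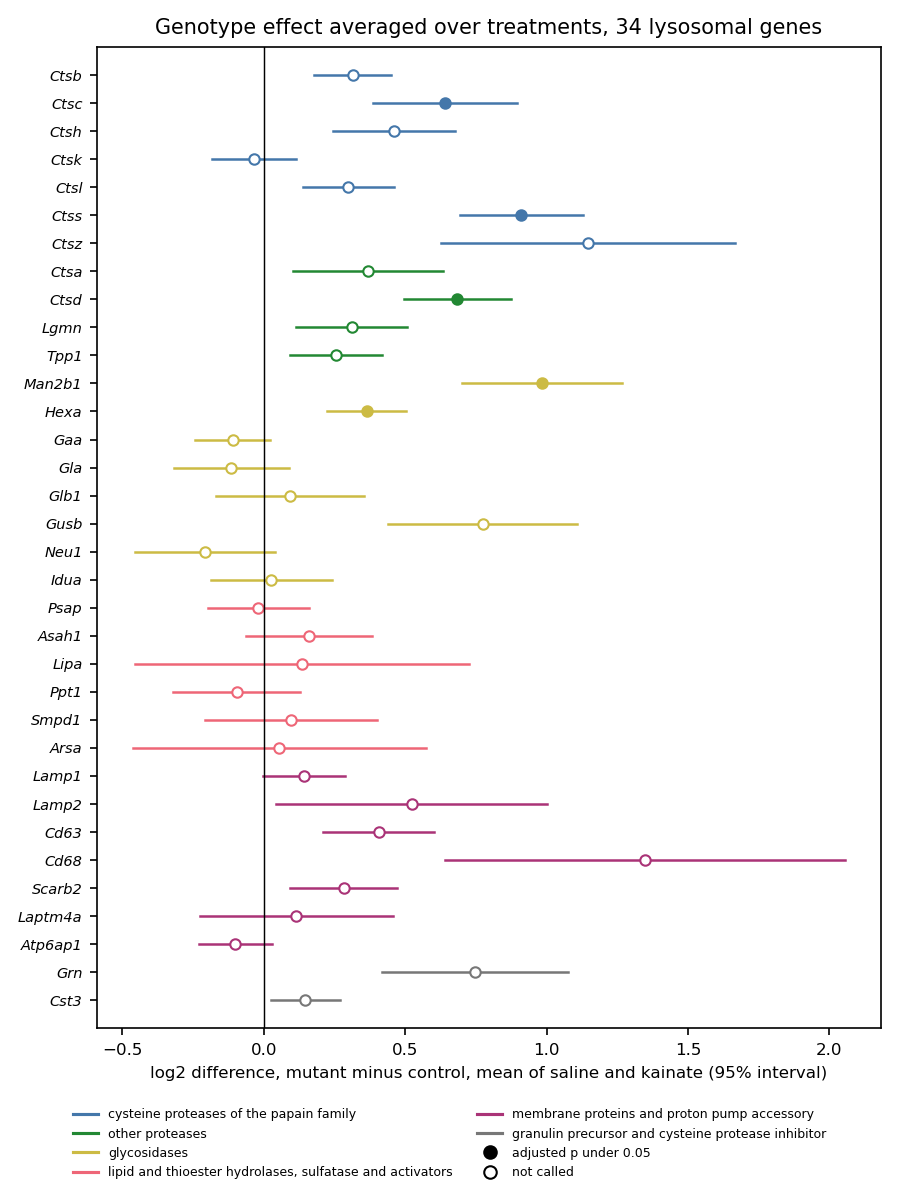
Difference between mutants and controls averaged over saline and kainate (log2, horizontal axis) for 34 lysosomal genes, coloured by role, with 95% intervals of the fit as lines. Filled points are the 5 members with an adjusted p under 0.05, and the proteases lie to the right of 0 with the exception of Ctsk, while the 6 genes of lipid, thioester and sulfate breakdown lie between -0.10 and 0.16.

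**Figure D3:**
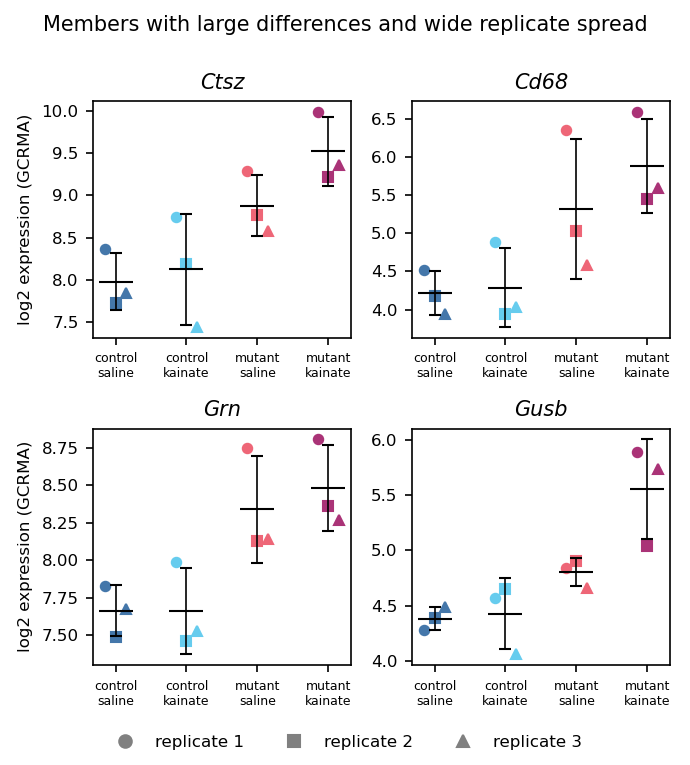
Log2 expression (GCRMA) of Ctsz, Cd68, Grn and Gusb on each of 12 arrays, with markers for the replicate number, bars for group means and whiskers for 1 SD (n = 3). Replicate 1 is the highest array of each group for Ctsz, Cd68 and Grn, and for all 4 genes each mutant array lies above the control array of the same replicate number and treatment.

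The genotype difference was next compared between treatments, which use separate arrays. Under saline 24 of 34 members were above 0 with a median of 0.18 log2, and under kainate 28 with a median of 0.32. Among probe sets above the median level, 77.4% of 31 members were above 0 under saline, against 49.5% of all (median -0.0016). Under kainate 90.3% of these members were above 0, against 65.2% of all (median 0.08). With quantile normalization the medians of the 34 members were 0.19 under saline and 0.22 under kainate. Of the members, 24 were above 0 in both treatments and 6 below 0 in both, and across these 34 genes Pearson's r between the treatments was 0.86 (0.46 over all probe sets). This r is a description across genes, which share the same arrays and are not independent replicates. Under saline the called member, Ctss, is 2.94% of the members against 0.137% of all probe sets, and 14 members (41.2%, against 2.57%) had an unadjusted p under 0.05. Under kainate the 4 called members are 11.8% against 0.354%, and 18 (52.9%, against 4.96%) had an unadjusted p under 0.05.

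The members with an unadjusted p under 0.05 that were not called within a treatment were all higher in mutants by value. Under saline, besides Ctsd and Man2b1, these were Ctsc at 0.54 log2 (adjusted p = 0.855), Ctsh at 0.50 (adjusted p = 0.641), Ctsl at 0.34 (adjusted p = 0.847) and Grn at 0.67 (adjusted p = 0.985). Cd68 (1.11), Ctsz (0.90), Cd63 (0.33), Lgmn (0.30), Scarb2 (0.30), Ctsb (0.23) and Cst3 (0.17) had an adjusted p of 1 there. Under kainate Gusb, the glycosidase, was nearest to the threshold among the uncalled members, at 1.13 (adjusted p = 0.077), followed by Ctsc at 0.74 (adjusted p = 0.151), Ctsb at 0.40 (adjusted p = 0.154) and Ctsz at 1.40 (adjusted p = 0.219). Grn was at 0.82 (adjusted p = 0.281), Cd63 at 0.49 (adjusted p = 0.29) and Cd68 at 1.59 (adjusted p = 0.398). Lamp2 (0.86), Ctsa (0.45), Ctsh (0.42), Tpp1 (0.33), Lgmn (0.32), Scarb2 (0.27) and Ctsl (0.25) had an adjusted p of 0.53.

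Within 1 treatment these calls changed when single arrays were left out. Leaving out 1 array gave 0 to 1 called members under saline and 0 to 2 under kainate. The count under kainate was 0 without control kainate replicate 2, mutant saline replicate 2 or 3, or mutant kainate replicate 3. Under saline Ctss stayed called only without control kainate replicate 1, mutant kainate replicate 1 or mutant kainate replicate 3. Arrays of the other treatment do not enter a difference within 1 treatment. Leaving them out kept the differences as they were and changed only their error and the adjustment. With only the arrays numbered 2 and 3, no member was called in either treatment alone.

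The arrays of the genotypes often did not overlap. Under saline, all 3 mutant arrays lay above all 3 control arrays for 16 members (47.1%, against 3.85% of all probe sets) and below them for none (against 3.24%). Under kainate they lay above for 18 members (52.9%, against 4.03%) and below for 2, Gaa and Atp6ap1 (5.88%, against 4.97%). All 6 mutant arrays lay above all 6 control arrays for 10 members (29.4%, against 0.733%): Ctsb, Ctsc, Ctsh, Ctss, Ctsd, Man2b1, Hexa, Gusb, Cd63 and Grn.

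No lysosomal gene passed the threshold for a kainate effect at 1 hour in the unweighted fit. In controls 0 of 34 members were called by limma, against 0.33% of all probe sets, and in mutants 0 of 34, against 0.298%. At an unadjusted p under 0.05 there were 5 in controls (14.7%, against 7.37%) and 5 in mutants (14.7%, against 6.28%). With each array weighted by an estimate of its precision, 1 member was called in controls (2.94%, against 3.06%). In mutants 10 were called, 7 higher and 3 lower (29.4%, against 13%), among them Tpp1, Ctss, Gusb and Gaa. The weights of mutant saline replicates 1 to 3 were 0.25, 5.88 and 2.19. Those of mutant kainate replicates 1 to 3 were 0.90, 1.46 and 3.08. In the unweighted fit Ctss was at 0.37 log2 in controls (SE 0.14, adjusted p = 0.586) and at 0.34 in mutants (SE 0.14, adjusted p = 0.714). Tpp1 was at 0.25 in controls (SE 0.10, adjusted p = 0.601) and 0.40 in mutants (SE 0.10, adjusted p = 0.339).

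The Tpp1 arrays of the treatments did not overlap in either genotype. Control arrays read 8.56, 8.58 and 8.49 after saline and 8.95, 8.81 and 8.63 after kainate. Mutant arrays read 8.86, 8.71 and 8.59 after saline and 9.14, 9.22 and 9.02 after kainate. The kainate arrays were all above the saline arrays for 2 members in controls (5.88%, against 2.29%) and 6 in mutants (17.6%, against 4.98%). They were all below for 5 in controls (14.7%, against 4.75%) and 1 in mutants (2.94%, against 7.39%). That 1 member, Gaa, was also below in controls, and was at -0.23 in controls and -0.20 in mutants (SE 0.08 each, adjusted p = 0.578 and 0.76).

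Some members had different values in the genotypes. Psap was at -0.35 log2 in controls (SE 0.11, adjusted p = 0.508) and -0.14 in mutants (SE 0.11). Hexa was at -0.28 in controls (SE 0.09, adjusted p = 0.494) and 0.08 in mutants (SE 0.09). Gusb was at 0.04 in controls (SE 0.21) and 0.75 in mutants (SE 0.21, adjusted p = 0.405), and Ctsc was at 0.18 in controls and 0.38 in mutants (SE 0.16 each, adjusted p = 0.768 in mutants). The interaction between genotype and treatment was called by limma for 0 of 34 members and for 0 of all 12422 probe sets (0%). At an unadjusted p under 0.05 there were 2 members (5.88%, Hexa and Gusb) against 0.861% of all probe sets. The Gusb interaction was 0.71 log2 (SE 0.30, adjusted p = 0.939). Across members, 12 were above 0 and 11 below 0 in both genotypes. The median kainate effect over members was -0.04 log2 in controls and 0.05 in mutants, against 0.05 and -0.02 over all probe sets. Among probe sets above the median level it was -0.05 and 0.08 for the 31 members there, against -0.10 and -0.02 for all. The interaction was above 0 for 80.6% of those 31 members, against 66.1% of all such probe sets. The median of the 34 members in controls has no settled direction. It changed sign with quantile normalization (0.03, 18 of 34 members above 0) and with array weights (0.02, 19 of 34 above 0).

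**Figure D4:**
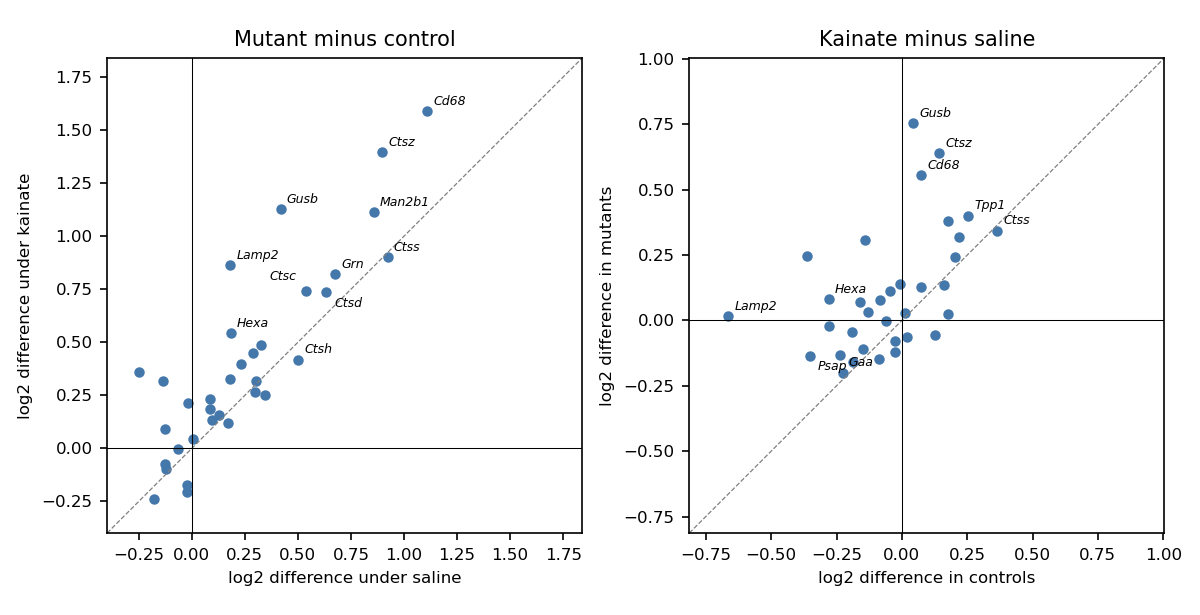
Each point is 1 of 34 lysosomal genes. The left panel plots the log2 difference between mutants and controls under kainate against that under saline, and the right panel the log2 difference between kainate and saline in mutants against that in controls, with the dashed line marking equality. On the left 24 genes are above 0 on both axes, with Cd68 and Ctsz farthest from 0 under kainate; on the right 12 genes are above 0 on both axes and 11 below.

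Lysosomal genes outside the list were examined in 4 further lists. Of 20 measured hydrolases, activators and inhibitors, 0 were called by limma in the averaged comparison (median 0.10 log2), and the highest was Npc2, a cholesterol-binding protein of the lumen, at 0.33 (SE 0.09, adjusted p = 0.265). Of 17 measured membrane proteins and transporters, 1 was called: Laptm5, a membrane protein of lysosomes in blood and immune cells, was higher by 0.82 (SE 0.08, adjusted p = 0.00138), and it is also among the microglial markers used here. The median of that list was 0.03. Of 14 subunits of the vacuolar proton pump, 0 were called (median -0.02). Of 27 genes for sorting to the lysosome and for control of lysosomal genes, 0 were called (median 0.03), with Tfeb at 0.03 (SE 0.09) and Igf2r, the large mannose 6-phosphate receptor, at 0.19 (SE 0.21). At an unadjusted p under 0.05, which 5.98% of all probe sets had, these lists held a further 8 genes: 2 of the 20 hydrolases and cofactors (Npc2 and Ggh), 4 of the 17 membrane proteins (Cd9, Cd81, Litaf and Laptm4b), 1 of the 14 pump subunits (Atp6v0e) and 1 of the 27 sorting and control genes (Sorl1). Laptm4b and Sorl1 were below 0 and the other 6 above. Mean levels of the 17 membrane proteins were 7.50 to 7.53 in control saline and 7.56 to 7.57 in mutant saline arrays. After kainate they were 7.198 to 7.581 in controls and 7.584 to 7.675 in mutants, a narrow gap. The 20 hydrolases and cofactors were at 5.85 to 5.86 in control saline and 5.91 to 6.00 in mutant saline arrays. Their means overlapped after kainate, and those of the pump and sorting lists overlapped in both treatments.

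The mean level of the microglial markers, like that of the lysosomal genes, was higher in mutants. Of 22 listed markers, none of them a member, 20 were measured. In the averaged comparison 10 of the 20 were called, all 10 of them higher in mutants, where 0.419% of all probe sets were called higher. By value 15 markers were above 0 and 5 below, with a median of 0.76 log2. Their mean log2 level per array was 5.35 to 5.44 in control saline, 5.42 to 5.55 in control kainate, 6.05 to 6.27 in mutant saline and 6.20 to 6.44 in mutant kainate arrays, and the genotypes did not overlap. Summed over the 20 markers, these levels were 107.1 to 108.8, 108.3 to 111.0, 121.0 to 125.4 and 124.0 to 128.8. Over the same arrays the mean of the 34 lysosomal genes was 7.85 to 7.90, 7.72 to 7.93, 8.07 to 8.17 and 8.17 to 8.28. The part of the microglial markers in the difference of the lysosomal genes was not tested.

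The called microglial markers were Cd52 (2.32 log2), Tyrobp (1.76), Mpeg1 (1.43), Lyz2 (1.41), C1qc (1.24), C1qb (1.17), C1qa (1.08), Cd53 (0.83), Laptm5 (0.82) and Csf1r (0.70). Tyrobp is the signalling adaptor of microglial receptors, C1qa, C1qb and C1qc are the chains of complement C1q, and Csf1r is the receptor on which microglia depend. Ly86 was at 1.94 (adjusted p = 0.0587), Irf8 at 0.56 (adjusted p = 0.336) and Aif1 at 0.43 (adjusted p = 0.63). The other 7 (Cx3cr1, Fcer1g, Ptprc, Coro1a, Spi1, Fcgr3 and Itgam) ranged from -0.07 to 0.19. Of these Spi1, Fcgr3 and Itgam were dim, with group means of 1.46 to 2.48. No marker was called in the kainate comparisons or in the interaction.

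Among 14 astrocyte markers, Gfap (1.62 log2, SE 0.21, adjusted p = 0.00554) and Clu (0.47, SE 0.06, adjusted p = 0.00476) were called, both higher in mutants. By value 12 of the 14 were above 0 and 2 below. The mean level of this list was 9.25 to 9.79 in control saline and 9.28 to 9.85 in control kainate arrays. It was 9.54 to 10.10 in mutant saline and 9.47 to 10.10 in mutant kainate arrays, so the genotypes overlapped. Replicate 1 was the lowest in every group. Each mutant array lay above the control array of the same number and treatment. None of 9 oligodendrocyte, 14 general neuronal and 11 endothelial or blood markers was called. The mean of the endothelial and blood list was 5.73 to 5.78 in control saline and 5.84 to 5.89 in mutant saline arrays. It was 5.80 to 5.90 in control kainate and 5.94 to 6.13 in mutant kainate arrays, so the genotypes did not overlap within a treatment. The means of the oligodendrocyte and general neuronal lists overlapped between genotypes in both treatments. Of 8 measured markers of hippocampal neurons, which bear on the labelled tissue, Wfs1 was called lower (-1.04) and Bok higher (0.69). The mean of this list was 7.30 to 7.45 in control saline and 7.12 to 7.26 in mutant saline arrays, without overlap. It was 7.18 to 7.45 in control kainate and 7.11 to 7.21 in mutant kainate arrays, which overlapped. The part of these lists in the lysosomal difference was not tested.

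**Figure D5:**
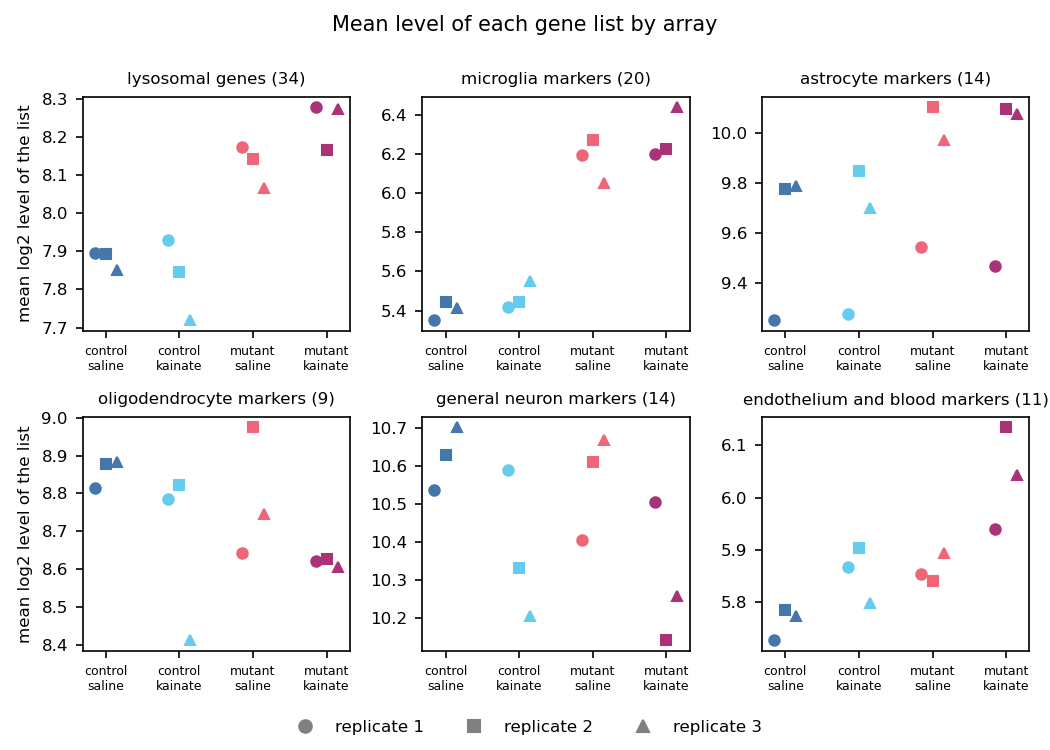
Mean log2 level (GCRMA) over the genes of each list on each of 12 arrays, with the number of genes in parentheses and markers for the replicate number. The lysosomal genes and the microglial markers are higher on all 6 mutant arrays than on any control array. The astrocyte list overlaps between genotypes and has its lowest arrays at replicate 1. Each of its mutant arrays lies above the control array of the same number and treatment. The endothelial and blood list does not overlap between genotypes within a treatment.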

How the data were processed

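The values are log2 expression that the authors made with GCRMA in R 2.4.1, per the submitters' processing notes, and deposited as 1 table of 12488 probe sets. The GCRMA version, and whether the 12 arrays went through it together, are not given in the sources used here. After 66 control probe sets were left out, 12422 were fitted with limma 3.58.1 in R 4.3.3, with 1 mean per group over all 12 arrays. Tests were two-sided, with Benjamini-Hochberg adjustment over all 12422 probe sets and a threshold of 0.05. Each member stands by its brightest probe set among those annotated with 1 symbol (52 probe sets in all, 1 each for 20 members). Positive genotype differences mean higher in mutants, errors are SE of the fit, and intervals are 95%.

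The members and gene lists were chosen with earlier results of these data known. Members that passed the threshold are given on every array, and uncalled members with an unadjusted p under 0.05 in a comparison by difference and adjusted p. P-values of the main fit measure the spread between pools of 3 animals together with the shared deviation of the arrays numbered 1. The number of arrays limits the precision. Tested on simulated data for the averaged comparison (12422 probe sets), the fit recovered 63 of 100 changes of 0.5 log2 and 87 of 100 changes of 1. In the same run it called 12 probe sets that had not been changed. The simulated noise was independent between arrays, without the shared deviation of the arrays numbered 1. These rates therefore need not hold for the real arrays. Alternatives were the replicate number or replicate 1 as a block, only the arrays numbered 2 and 3, quantile normalization, median centring, a filter at the median level, a robust prior with an intensity trend, averaged probe sets, only the arrays compared, array weights, and leaving out each array.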

Additional observations from a re-analysis of the deposited data

How the results depend on the processing

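Arrays with the same number deviated together for number 1 (correlations of 0.37 to 0.85) and number 2 (0.30 to 0.58). Those numbered 3 did so (0.40 to 0.62) except with control kainate replicate 3, the array with the narrow range (-0.01 to 0.38). Arrays numbered 2 also correlated with those numbered 3 (0.02 to 0.57). Since the deviations of the 3 arrays of a group sum to 0, the values for numbers 2 and 3 follow in part from number 1. They do not show 3 separate batches. The main fit did not use the numbers, and fits with them as a block are given next. Shares of all features tested under the same setting follow each count as a percentage. With the replicate number as a block, 9 members were called in the averaged genotype comparison in place of 5 (0.998%, in place of 0.612%), 7 in place of 4 under kainate (0.539%, in place of 0.354%) and 3 in place of 1 under saline (0.242%, in place of 0.137%). With replicate 1 against 2 and 3 as a block the counts were 10 (1.13%), 9 (0.62%) and 3 (0.306%). Under saline the 3 were Ctss, Man2b1 and Grn with either block. With only the arrays numbered 2 and 3 the counts were 6 (0.378%), 0 (0.0805%) and 0 (0.0161%). Under kainate, quantile normalization gave 1 (0.338%), median centring 2 (0.161%), only the arrays compared 0 (0.0403%) and averaged probe sets 2 (0.351%). Under saline, quantile normalization gave 0 (0.105%) and only the arrays compared 2 (0.105%). In the averaged comparison, averaged probe sets gave 3 (0.667%) and the filter on level 8 of 31 (1.3%). Array weights gave 15 averaged (3.85%), 12 under saline (5.47%), 1 for kainate in controls (3.06%) and 10 for kainate in mutants (13%), so far more of the whole array was called with them too. The weights (gene by gene, since the likelihood estimate did not converge) ran from 0.032 for control kainate replicate 3 to 6.17 for control saline replicate 2. Single arrays thus carried much of the weight of a group. Leaving out 1 array gave 3 to 8 averaged, 0 to 2 under kainate, 0 to 1 under saline, and 0 for both kainate effects and the interaction. Under quantile normalization 26 of 34 members were above 0 in the averaged comparison, and under median centring 29. None of the 5 called members changed direction in the averaged comparison under any alternative run, but not all stayed called. Besides the fits that left out 1 array, Hexa was not called with median centring or the robust prior with an intensity trend. Neither was it called with averaged probe sets or only the arrays numbered 2 and 3. Ctsc was not called with quantile normalization or averaged probe sets, and Ctsd not with only the arrays numbered 2 and 3.

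Uncalled members near 0 changed sign in the averaged comparison. Quantile normalization gave Arsa -0.011, Ctsk 0.016 and Idua -0.024 log2, and median centring gave Ctsk 0.00076 and Psap 0.015. Averaged probe sets gave Arsa -0.028, and the arrays numbered 2 and 3 gave Psap 0.089. Array weights gave Arsa -0.18, Glb1 -0.11, Ppt1 0.0087 and Psap 0.0089. Leaving out 1 array gave -0.15 to 0.19 for Arsa, -0.031 to 0.097 for Idua, -0.050 to 0.28 for Lipa and -0.072 to 0.031 for Psap. The cause was not tested.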
